A study of Homo sapiens with 9 samples.

Results

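S100 proteins are small calcium-binding proteins, and 10 of their genes were followed here in TE13 cells, a human esophageal squamous cell carcinoma (ESCC) line, after knockdown of the long noncoding RNA PARylator (LINC00885). The members were S100A2, S100A4, S100A6, S100A7, S100A8, S100A9, S100A10, S100A11, S100A14 and S100P, taken by gene symbol from a table of 60605 genes, in which each symbol had 1 row. The rows were chosen by symbol and, within a symbol, by mean FPKM, and the list itself was drawn up with results of these same libraries in view, so the levels of its members are a description, and what the members did is not independent evidence about the family. All 10 members passed the filter on low values (a mean of at least 0.1 FPKM, fragments per kilobase of exon scaled to library depth, over the 9 libraries). S100A7 did so only narrowly, with a mean of 0.118 FPKM, and no gene of the list fell below the filter.

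Poly(A)+ RNA was sequenced from TE13 cells transfected with a control siRNA or with either of 2 siRNAs to PARylator (siRNA.1 and siRNA.2). There were 3 replicates per condition and 9 libraries in all. All 9 libraries came from this single cell line, and the labels give neither a dose nor a time after transfection. Total counts on genes ranged from 15337917 to 17899074 with control siRNA, from 15374616 to 17762752 after siRNA.1 and from 19213164 to 22559998 after siRNA.2. LINC00885 was near the limit of detection, with 6, 7 and 12 counts in the control libraries, 4, 5 and 2 after siRNA.1 and 2, 0 and 4 after siRNA.2. Its FPKM was lower in every siRNA library than in every control, with log2 fold changes of -1.21 (SE 0.945) and -2.33 (SE 1.01). At these counts neither siRNA passed the test for it (edgeR, adjusted p = 0.376 and 0.0659). The paper reports siRNA knockdown of PARylator in TE13 cells, measured by qPCR. The 9 squamous epithelial marker genes checked were each at 1 FPKM or more on average in every condition, and their summed level ranged from 652 to 665 FPKM in the controls, from 575 to 602 after siRNA.1 and from 566 to 585 after siRNA.2. They did not move as 1 group: with each siRNA 3 were called higher (KRT6A, DSG3 and EPCAM) and 4 lower (KRT5, KRT17, TP63 and CDH1), and KRT5, a basal keratin, went from 142 FPKM to 40.0 and 55.8.

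S100 proteins carry a pair of EF hands, act mostly as dimers, and on binding calcium expose a surface that docks onto target proteins, among them annexins, cytoskeletal proteins and p53. Some are also released from cells, where they act as alarmins on receptors such as RAGE (AGER) and TLR4. Most S100 genes lie together on chromosome 1q21, interleaved with the genes of the cornified envelope in a stretch known as the epidermal differentiation complex, and squamous epithelia express many of them. Calprotectin, the dimer of S100A8 and S100A9, is abundant in neutrophils and is also made by keratinocytes.

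Among the members, 9 lie on chromosome 1 and S100P lies on chromosome 4 (6693878 to 6697170, plus strand, GRCh38). S100A10 and S100A11 sit at one end of the chromosome 1 cluster, S100A8 and S100A9 further along, and S100A14 towards the other end. All 10 are protein-coding genes with small transcripts, from 408 bases for S100A8 to 1054 bases for S100A14 in the GENCODE canonical models, with 3 exons each except S100A14, which has 4, and S100P, which has 2.

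The sequences around the transcription start are shown for the members with the largest fitted changes and for S100A7, because these hold the letters TATAAA of the TATA box just before the start. Each line runs from 100 bases before the start to the 50 bases that begin at it, taken from RefSeq (GRCh38.p14), 5′ to 3′ on the gene's strand, with the matched letters in capitals. The windows are at chr1:153391024-153391173, minus strand, for S100A8, chr1:153357754-153357903, plus strand, for S100A9, chr4:6693778-6693927, plus strand, for S100P, chr1:153545757-153545906, minus strand, for S100A4, and chr1:153460602-153460751, minus strand, for S100A7.
S100A8: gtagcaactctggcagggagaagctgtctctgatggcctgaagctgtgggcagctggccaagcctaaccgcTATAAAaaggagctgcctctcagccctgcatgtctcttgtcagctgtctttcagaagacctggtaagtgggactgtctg
S100A9: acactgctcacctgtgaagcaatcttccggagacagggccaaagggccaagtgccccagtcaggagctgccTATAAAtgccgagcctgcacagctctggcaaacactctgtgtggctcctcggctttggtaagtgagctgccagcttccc
S100P: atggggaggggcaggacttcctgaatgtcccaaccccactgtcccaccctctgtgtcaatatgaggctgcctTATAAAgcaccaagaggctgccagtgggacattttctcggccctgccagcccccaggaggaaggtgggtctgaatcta
S100A4: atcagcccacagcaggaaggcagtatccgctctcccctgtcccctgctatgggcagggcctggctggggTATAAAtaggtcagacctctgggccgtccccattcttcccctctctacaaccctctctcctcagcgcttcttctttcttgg
S100A7: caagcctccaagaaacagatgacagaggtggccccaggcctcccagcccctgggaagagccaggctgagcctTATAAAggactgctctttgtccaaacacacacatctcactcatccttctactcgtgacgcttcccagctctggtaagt

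With the start base counted as 0, the letters lay at positions -29 to -24 in S100A8 and S100A9, at -28 to -23 in S100P and S100A7, and at -31 to -26 in S100A4. RefSeq windows of 300 bases (250 before the start and 50 from it) were found for all 10 members, and 5 of them held TATAAA on either strand, against 11.5% of 35116 promoters of the same length. S100A2, S100A6, S100A10, S100A11 and S100A14 held none. In S100A6 and S100A14 the related letters TATAAG, searched for only after the windows had been read, lay at positions -30 to -25 and -29 to -24, and 5.59% of promoters of this length hold them on either strand. In S100A7 and S100P the same letters, read on the other strand, overlap TATAAA. The AP-1 motif TGANTCA was in 1 member, S100A2, at positions -52 to -46, against 7.71% of promoters, and the GAS motif TTCNNNGAA was in none, against 7.66%. The S100A2 window is at chr1:153565795-153565944, minus strand, shown as above.
S100A2: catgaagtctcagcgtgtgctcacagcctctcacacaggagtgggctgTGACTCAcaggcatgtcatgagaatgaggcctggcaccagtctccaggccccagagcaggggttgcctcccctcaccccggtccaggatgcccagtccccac

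These matches are letters in a window and not measured sites. For S100A2, S100A4, S100A6, S100A11 and S100A14 the RefSeq start lay inside the deposited gene span, 253 to 10903 bases from its outer end, and where RefSeq listed more than 1 start the nearest to that end was used. TATAAA was thus present in S100A8, S100A9 and S100A4, which fell with both siRNAs, and in S100P, which rose. Any link of the letters to these changes was not tested.

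The members spanned a wide range of levels. With control siRNA the most abundant was S100A11 at 971 ± 6.01 FPKM (mean ± SD, n = 3, as for the means below), followed by S100A10 at 579 ± 16.6, S100A6 at 456 ± 2.66, S100A14 at 274 ± 9.48, S100A2 at 84.8 ± 3.56 and S100A9 at 60.4 ± 6.21. S100A4 at 7.42 ± 1.38 and S100A8 at 7.07 ± 1.49 had overlapping ranges, so their order was not separated by the replicates. S100P at 2.48 ± 0.650 and S100A7 at 0.133 ± 0.231 FPKM came last. S100A11 stood above 99.9% of the genes tested, S100P above 54.9% and S100A7 above 8.86%.

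**Figure D1:**
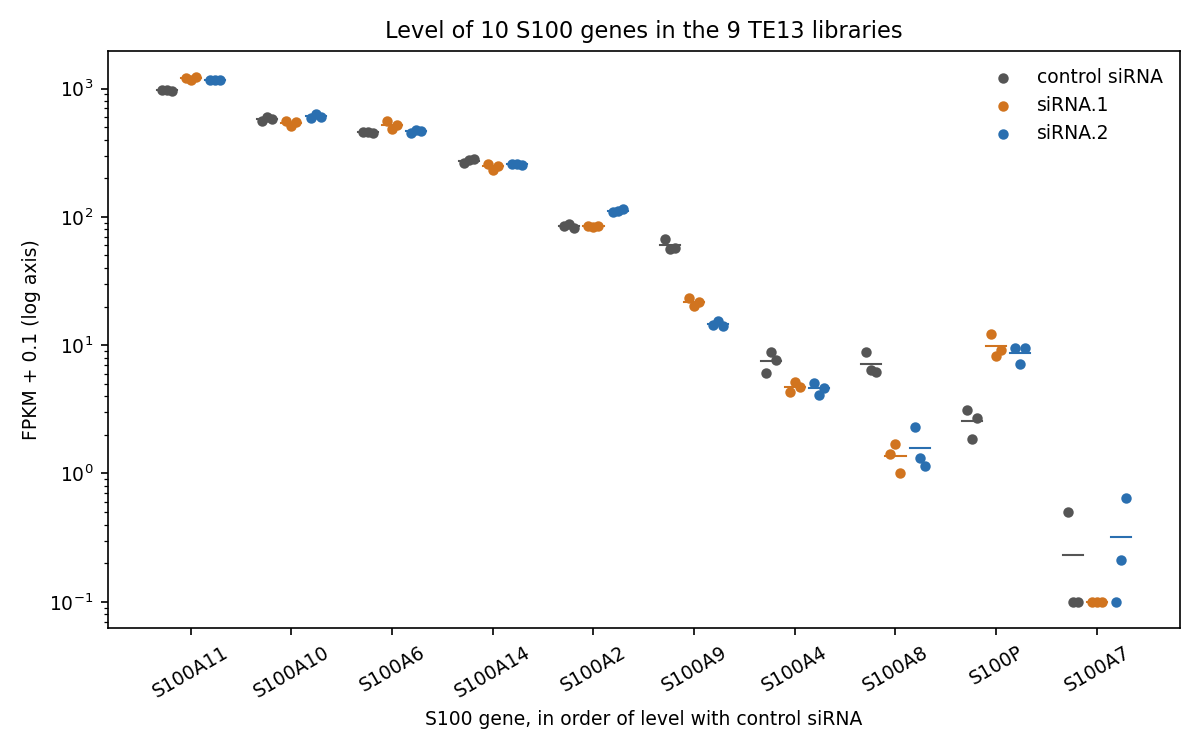
Level of each S100 gene (x axis, in order of its level with control siRNA) as FPKM + 0.1 on a log axis; each point is a library (3 per condition) and each short line the mean of a condition. S100A8 and S100A9 with the siRNAs sit below every control library, S100P sits above, and the abundant members barely move on this scale.

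The order changed in the lower part of the list after knockdown. With siRNA.1, S100P at 9.82 ± 2.11 FPKM stood above S100A4 at 4.64 ± 0.431 and S100A8 at 1.28 ± 0.358, with no overlap between neighbours, whereas S100A10 and S100A6 overlapped. With siRNA.2 the order was the same, with S100P at 8.57 ± 1.30 FPKM, S100A4 at 4.50 ± 0.475 and S100A8 at 1.49 ± 0.628. The deposited FPKM divide by the length of all exons of a gene, which for S100A8 is 891 bases against 408 in its canonical transcript. Per canonical length, an alternative added after the data had been seen, S100A6 ranked above S100A10 in all 3 conditions. In the controls S100A8 then ranked above S100A4 by mean (15.4 against 13.7), but the replicates did not separate this order either.

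Summed over the 10 members, the level was 2442 ± 23.2 FPKM with control siRNA, 2620 ± 105 after siRNA.1 and 2634 ± 33.8 after siRNA.2, and the libraries of each siRNA (2500 to 2695, and 2604 to 2671) lay above those of the controls (2424 to 2468). The mean of S100A11 differed by more than the sum did after siRNA.1, so the other members together were lower there, and by nearly as much as the sum after siRNA.2. Its share of the summed level was 39.8% in the controls, 45.7% after siRNA.1 and 44.2% after siRNA.2. The share of S100A9 went from 2.48% in the controls to 0.825% and 0.552%, and that of S100P from 0.102% to 0.373% and 0.326%. As a share of all counts of a library, the members made up 0.216% to 0.222% in the controls and 0.218% to 0.237% after siRNA.1. After siRNA.2 they made up 0.231% to 0.238%. By this measure the siRNA.1 libraries overlapped the controls, so their separation in summed FPKM depends on the measure. Neither the summed level nor the share of counts was tested.

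To ask which members changed, each siRNA was compared with control siRNA by edgeR's quasi-likelihood test over 21395 genes, and a gene was called where its Benjamini-Hochberg adjusted p was under 0.05. With siRNA.1, 8 of the 10 members passed, 3 higher (S100A6, S100A11 and S100P) and 5 lower (S100A4, S100A8, S100A9, S100A10 and S100A14); over all genes tested, 15.0% were called higher and 15.2% lower. With siRNA.2, 7 members passed, 3 higher (S100A2, S100A11 and S100P) and 4 lower (S100A4, S100A8, S100A9 and S100A14), against 15.8% of all genes called higher and 15.1% lower. Passing and at least 2-fold were S100A8, S100A9 and S100P with each siRNA, 3 of 10 members, against 3.96% of all genes after siRNA.1 and 4.02% after siRNA.2. Because the list was chosen with these results known, nothing is read from its counts against these shares. The median log2 fold change of the members was -0.16 after siRNA.1 and 0.04 after siRNA.2, and that of all genes tested was under 0.01 in size in both. The 2 comparisons share the 3 control libraries, so a high or low control library moves both.

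**Figure D2:**
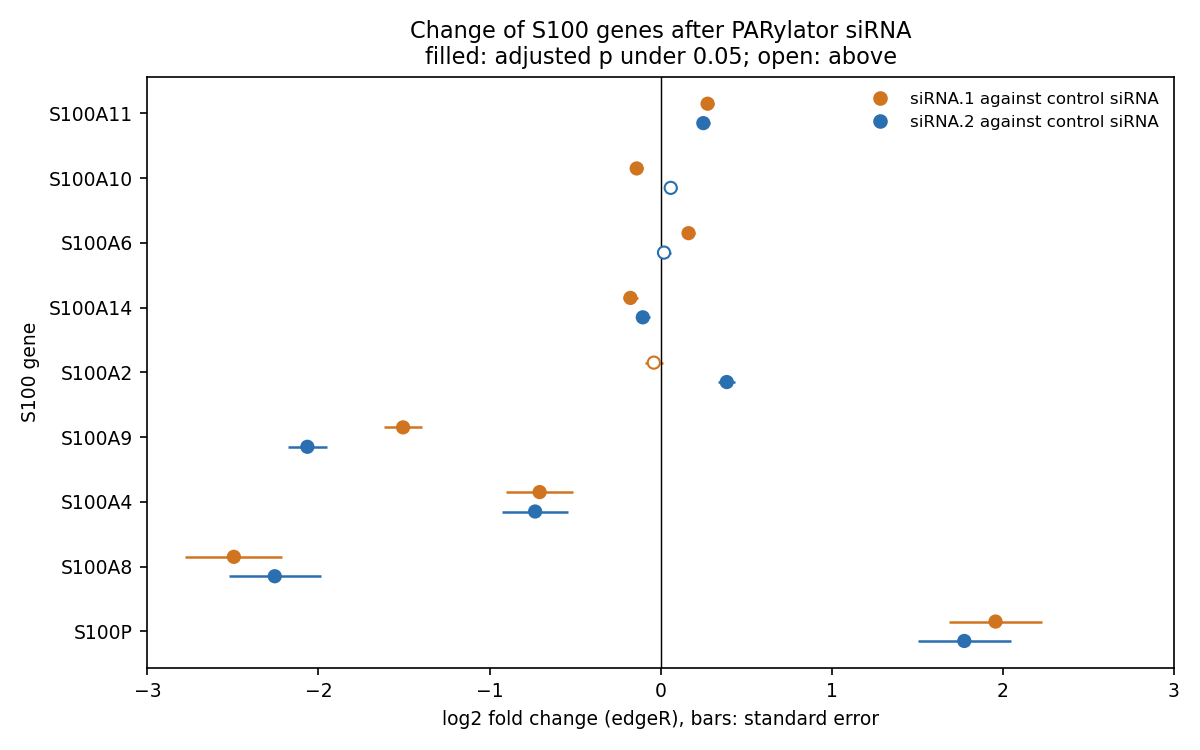
Fitted log2 fold change (x axis) of 9 S100 genes (y axis, most abundant at the top) after siRNA.1 (orange) and siRNA.2 (blue) against control siRNA; bars are the standard error and filled points have an adjusted p under 0.05. S100A8 and S100A9 are lower and S100P higher by over 1 log2 unit with each siRNA, S100A4 is lower by about 0.7, and the other members lie within 0.4 of 0; S100A7 is left out because its counts were at the floor.

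Both subunits of calprotectin fell. S100A9, the partner of S100A8 and the more abundant of them here, was at 67.6, 56.5 and 57.1 FPKM in the control libraries, at 23.1, 20.1 and 21.7 after siRNA.1 and at 14.3, 15.4 and 13.9 after siRNA.2. The 3 conditions did not overlap, and the first control library was the highest of all. Its log2 fold change was -1.51 after siRNA.1 (SE 0.110, edgeR adjusted p = 1.39e-40) and -2.06 after siRNA.2 (SE 0.113, adjusted p = 2.89e-72), that is 2.84-fold and 4.18-fold lower. The level was also lower after siRNA.2 than after siRNA.1, by a log2 difference of -0.56 (SE 0.123, edgeR adjusted p = 0.000142).

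S100A8, which pairs with S100A9 and is unstable as a protein without it, was scarcer, at 8.78, 6.34 and 6.08 FPKM in the controls, 1.33, 1.61 and 0.90 after siRNA.1 and 2.21, 1.23 and 1.04 after siRNA.2. These rest on 120, 88 and 97 counts in the control libraries, 21, 22 and 14 after siRNA.1 and 39, 21 and 21 after siRNA.2. Every siRNA library was below every control library, and the siRNAs overlapped each other. S100A8 fell 5.64-fold after siRNA.1 (log2 fold change -2.49, SE 0.284, edgeR adjusted p = 5.06e-17) and 4.78-fold after siRNA.2 (-2.26, SE 0.270, adjusted p = 1.91e-15). The difference between the siRNAs, 0.24 with an SE of 0.322, did not pass (edgeR adjusted p = 0.748), and the difference was smaller than its SE.

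The ratio of S100A9 to S100A8 FPKM therefore did not stay level in every library. It ranged from 7.70 to 9.40 in the controls, from 12.5 to 24.1 after siRNA.1 and from 6.46 to 13.4 after siRNA.2. The siRNA.1 libraries lay above the controls, whereas the siRNA.2 libraries spanned them. The denominator in each siRNA library rests on 14 to 39 counts, and the ratio was not tested.

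Leukocytes are the other main source of calprotectin, and their markers were measured beside it. Of the 10 leukocyte markers checked, none reached 1 FPKM on average in the controls and 2 did so with each siRNA (LYZ and FCER1G). Their summed level was 0.790 to 1.77 FPKM with control siRNA, 5.17 to 5.80 after siRNA.1 and 5.36 to 6.55 after siRNA.2. With each siRNA, 4 of the 6 that could be tested were called higher, where 15.0% and 15.8% of all genes tested were. PTPRC, 1 of the markers, averaged 0.0333 FPKM in the controls, 0.153 after siRNA.1 and 0.147 after siRNA.2. MS4A1 was at 0 in every library, MPO at 0 in the controls and after siRNA.2, and CD3E at 0 after siRNA.2. The marker sum was thus higher in the 6 siRNA libraries, in which S100A8 and S100A9 were lower, and its part in their change was not tested. In RNA from whole cultures, fewer cells that express a gene and less of its RNA per cell cannot be told apart.

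S100P, which is released by many carcinomas and binds ezrin, IQGAP1 and RAGE, rose. It was at 3.05, 1.77 and 2.61 FPKM in the controls, at 12.2, 8.15 and 9.12 after siRNA.1 and at 9.33, 7.07 and 9.32 after siRNA.2, from 22, 13 and 22 counts, 102, 59 and 75 counts and 87, 64 and 99 counts. The lowest siRNA library was over 2 times the highest control library. The log2 fold change was 1.96 after siRNA.1 (SE 0.272, edgeR adjusted p = 1.17e-11) and 1.78 after siRNA.2 (SE 0.271, adjusted p = 8.69e-10), or 3.89-fold and 3.42-fold. Between the siRNAs the difference was -0.18 with an SE of 0.226 (edgeR adjusted p = 0.723). Together with the fall of S100A9, the ratio of S100A9 to S100P FPKM went from 25.3 ± 5.73 in the controls to 2.25 ± 0.308 and 1.74 ± 0.388.

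S100A4, known for its binding to non-muscle myosin IIA and its link to cell motility, fell. Its levels were 6.0, 8.75 and 7.50 FPKM with control siRNA, 4.23, 5.09 and 4.60 after siRNA.1 and 4.97, 4.02 and 4.50 after siRNA.2. All 6 siRNA libraries were below the 3 controls, though the lowest control came within 1 FPKM of the highest siRNA library. The log2 fold change was -0.71 after siRNA.1 (SE 0.195, edgeR adjusted p = 0.00153) and -0.73 after siRNA.2 (SE 0.191, adjusted p = 0.00071), and the siRNAs differed by -0.03 (SE 0.200). The gene span of S100A4 overlaps that of its neighbour S100A3 on the same strand, but in GENCODE the exons share no bases.

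S100A11 and S100A10 are the most abundant members and each binds an annexin, S100A11 mainly ANXA1 and S100A10 mainly ANXA2. S100A11 was at 974, 974 and 964 FPKM in the controls, at 1198, 1163 and 1229 after siRNA.1 and at 1169, 1163 and 1158 after siRNA.2. All 6 siRNA libraries were above the 3 controls, and S100A11 rose by a log2 fold change of 0.27 after siRNA.1 (SE 0.0367, edgeR adjusted p = 1.52e-12) and of 0.25 after siRNA.2 (SE 0.0366, adjusted p = 1.44e-10), about 1.21-fold and 1.19-fold. The siRNAs differed by -0.02 (SE 0.0365, edgeR adjusted p = 0.775). Of 8 pseudogene rows of S100A11, 7 were at 0 and the highest value was 0.190 FPKM. Reads that match both S100A11 and a copy may be counted for neither, so these values cannot show how many were lost.

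S100A10, which binds ANXA2 and AHNAK at the plasma membrane without needing calcium, was at 561, 594 and 581 FPKM in the controls, 554, 506 and 545 after siRNA.1 and 592, 630 and 601 after siRNA.2. The siRNA.1 libraries lay just below the controls and the siRNA.2 libraries overlapped them. Its log2 fold change was -0.14 after siRNA.1 (SE 0.0381, edgeR adjusted p = 0.00138) and 0.06 after siRNA.2 (SE 0.0379, adjusted p = 0.257). The fall after siRNA.1 was lost in limma on log2(FPKM + 0.1), at an adjusted p of 0.0787, and without siRNA.1 replicate 2, at an edgeR adjusted p of 0.0612. The difference between the siRNAs was 0.20 (SE 0.0380, edgeR adjusted p = 6.69e-06).

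S100A6, or calcyclin, which binds CACYBP and annexins, was at 455, 459 and 454 FPKM in the controls, 560, 481 and 519 after siRNA.1 and 449, 479 and 469 after siRNA.2. The siRNA.1 libraries were spread widely but lay above the controls, and the siRNA.2 libraries overlapped them. S100A6 rose by 0.16 on the log2 scale after siRNA.1 (SE 0.0396, edgeR adjusted p = 0.000243), a call that was lost without siRNA.1 replicate 1 (0.10, adjusted p = 0.0544), and stood at 0.02 after siRNA.2 (SE 0.0395, adjusted p = 0.773). An antisense gene, ENSG00000238279, shares 37 exonic bases with S100A6, 3.81% of its exonic length, and whether the counting used strand is not given in the sources used here.

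S100A14, a member expressed in epithelia, was at 263, 279 and 280 FPKM in the controls, 258, 232 and 251 after siRNA.1 and 256, 259 and 255 after siRNA.2. Every siRNA library was below the lowest control, by a narrow margin. It fell by 0.18 on the log2 scale after siRNA.1 (SE 0.0422, edgeR adjusted p = 0.000198). With siRNA.2 it fell by 0.10 (SE 0.0420, edgeR adjusted p = 0.0441), a call at the threshold that was lost under 10 alternatives, among them limma on log2(FPKM + 0.1) at an adjusted p of 0.144 and the fit without control replicate 3 at an edgeR adjusted p of 0.193.

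S100A2, a member typical of basal squamous cells that binds p53, differed between the siRNAs. It was at 84.3, 88.6 and 81.6 FPKM in the controls, 85.1, 82.8 and 84.4 after siRNA.1 and 108, 112 and 115 after siRNA.2. The siRNA.1 libraries lay inside the range of the controls and every siRNA.2 library lay above both. The log2 fold change was -0.04 after siRNA.1 (SE 0.0513, edgeR adjusted p = 0.632) and 0.39 after siRNA.2 (SE 0.0503, adjusted p = 3.43e-13), a rise of 1.31-fold, and the siRNAs differed by 0.43 (SE 0.0503, adjusted p = 3.96e-15).

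S100A7, or psoriasin, an antimicrobial protein of inflamed skin, was at the limit of detection. It had 3, 0 and 0 counts in the control libraries, 0 in each siRNA.1 library, and 0, 1 and 6 after siRNA.2. A count of 0 allows a level of up to 0.348 to 0.401 FPKM in the siRNA.1 libraries, taking 3 counts as the limit for counting error only. No fold is given, since the controls and siRNA.1 were at or under 3 counts in every library. The 3 near-identical copies of S100A7 in the table were at 0 in every library.

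The siRNAs were also compared directly. S100A2 and S100A10 were higher after siRNA.2 than after siRNA.1 and S100A6 and S100A9 lower, 4 of the 10 members in all, where 6.10% of all genes tested were called higher and 6.06% lower. None of the 4 differed 2-fold. S100A9 was thus lower with each siRNA and further down after siRNA.2, whereas S100A2, S100A6 and S100A10 passed against control with only 1 siRNA each, and for these the direct test passed too.

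S100 genes outside the 10 members were measured from a list of 11, of which 5 passed the filter. With siRNA.1, 1 was called higher (S100A16) and 1 lower (S100A3), and after siRNA.2, 2 were called lower (S100A3 and S100A13), shares of a list too short to set apart from the 15.0% to 15.8% of all genes called in each direction. S100A16, the most abundant of them, was at 198 FPKM on average in the controls, at 230 after siRNA.1 (log2 fold change 0.19, SE 0.0417, edgeR adjusted p = 4.32e-05) and at 195 after siRNA.2, and it was lower after siRNA.2 than after siRNA.1 (-0.22, SE 0.0415, adjusted p = 3.99e-06). Like S100A6, S100A16 was thus called higher after siRNA.1 and called lower in the direct comparison of siRNA.2 with siRNA.1. S100A3, the neighbour of S100A4, went from 6.53 FPKM in the controls to 3.62 after siRNA.1 (-0.87, SE 0.224, edgeR adjusted p = 0.000652) and 3.74 after siRNA.2 (-0.81, SE 0.219, adjusted p = 0.00118). S100A13, which takes part in the release of FGF1, was at 31.2 FPKM in the controls and 27.3 after siRNA.2 (-0.20, SE 0.0640, edgeR adjusted p = 0.00804, but 0.105 without control replicate 1). The 10 members made up 91.2% of the summed FPKM of all S100 genes in the controls, 90.8% after siRNA.1 and 92.0% after siRNA.2.

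On chromosome 1, the S100 genes lie among other genes of the epidermal differentiation complex, and all genes of the stretch were counted beside them. Between the deposited starts of S100A10 and S100A1, 1645 kb apart, the table holds 72 genes that are not S100 genes, of which 12 passed the filter. With siRNA.1, 6 of them were called higher and none lower, and after siRNA.2, 4 higher and none lower, where 15.0% and 15.8% of all genes tested were called higher. The other 6 and 8 did not pass, among them SPRR4, SPRR1A and SPRR2E, which passed with neither siRNA. In the alternative fits the number called higher went down to 4 after siRNA.1 and to 3 after siRNA.2. Those called after siRNA.1 included TCHH, ENSG00000229021 and ENSG00000285867, each with a mean under 1 FPKM. The span of ENSG00000229021 overlaps that of S100A11 on the opposite strand, though in GENCODE their exons share no bases. Whether the counting used strand is not given in the sources used here. Counted from the start of S100A10, SPRR1B, SPRR2D and SPRR2A, small proline-rich proteins that are cross-linked into the cornified envelope, lie at 1048, 1057 and 1073 kb, and S100A9 and S100A8 at 1375 and 1407 kb.

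SPRR1B went from 5.04 FPKM with control siRNA to 11.4 after siRNA.1 (log2 fold change 1.16, SE 0.197, edgeR adjusted p = 5.67e-08) and 10.8 after siRNA.2 (1.09, SE 0.195, adjusted p = 2.33e-07). SPRR2A went from 2.42 FPKM to 5.80 (1.23, SE 0.257, edgeR adjusted p = 1.44e-05) and 7.24 (1.56, SE 0.249, adjusted p = 4.94e-09). SPRR2D went from 0.490 FPKM to 1.63 (1.67, SE 0.439, edgeR adjusted p = 0.000844) and 1.58 (1.63, SE 0.435, adjusted p = 0.001). These 3 genes rose in the libraries in which S100A8 and S100A9 fell. Genes with near-identical copies, as the SPRR2 genes are, can share reads, so their single values are uncertain.

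**Figure D3:**
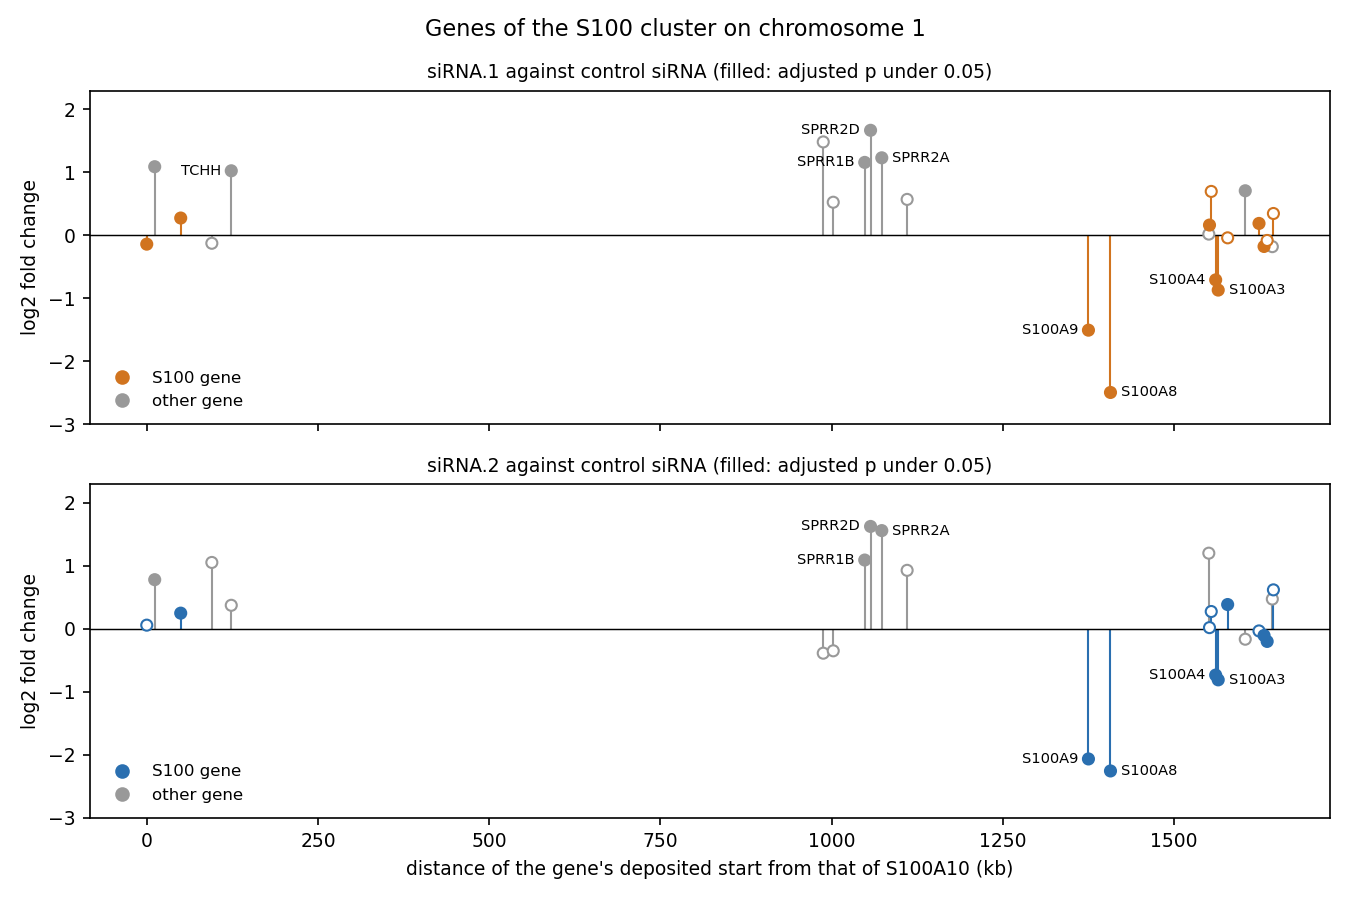
Fitted log2 fold change (y axis) of the tested genes between S100A10 and S100A1, placed by the distance in kb of their deposited start from that of S100A10 (x axis), after siRNA.1 (top) and siRNA.2 (bottom) against control siRNA; S100 genes are in colour, other genes in grey, filled points have an adjusted p under 0.05, and S100A7 is left out. SPRR1B, SPRR2D and SPRR2A point up and S100A9 and S100A8 further right point down with both siRNAs, while SPRR4 and SPRR1A (open points) lie on different sides of 0 with the 2 siRNAs.

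The cell-surface receptors reported for secreted S100 proteins were listed as 7 genes, of which 5 passed the filter. With siRNA.1, 4 were called lower and none higher, and after siRNA.2, 1 lower and none higher, where 15.2% and 15.1% of all genes tested were called lower. BSG (CD147), a receptor for S100A9, was at 116 FPKM in the controls, 92.6 after siRNA.1 (log2 fold change -0.35, SE 0.0395, edgeR adjusted p = 2.00e-17) and 119 after siRNA.2, and differed between the siRNAs by 0.38 (SE 0.0393, adjusted p = 1.53e-19). ALCAM went from 65.9 to 58.6 FPKM after siRNA.1 (-0.20, SE 0.0398, edgeR adjusted p = 7.01e-06) and was at 68.3 after siRNA.2. NPTN, which binds S100A8, fell with both, from 43.6 FPKM to 38.6 (-0.20, SE 0.0494, edgeR adjusted p = 0.000249) and 36.7 (-0.26, SE 0.0491, adjusted p = 8.24e-07). AGER, which encodes RAGE, went from 2.35 to 1.28 FPKM after siRNA.1 (-0.90, SE 0.232, edgeR adjusted p = 0.000601). After siRNA.2 it was at 1.80 FPKM, overlapping the controls, and did not pass (-0.39, SE 0.218, edgeR adjusted p = 0.185). The direct difference between the siRNAs did not pass for AGER either (0.52, SE 0.233, edgeR adjusted p = 0.149).

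Of the 13 genes for intracellular partners, all of which passed the filter, 1 was called higher and 5 lower after siRNA.1. After siRNA.2 none was called higher and 8 lower. Of all genes tested, 15.0% and 15.8% were called higher and 15.2% and 15.1% lower. These shares are over genes down to a mean of 0.1 FPKM and were not matched to the levels of the receptors or partners. Nothing about the lists as groups is read from them. The largest change was in AHNAK, a giant scaffold protein held at the membrane by S100A10 and ANXA2. It went from 51.5 ± 5.86 FPKM in the controls to 27.0 ± 3.08 after siRNA.1 (log2 fold change -0.96, SE 0.0374, edgeR adjusted p = 1.75e-141) and 24.4 ± 1.56 after siRNA.2 (-1.09, SE 0.0374, adjusted p = 2.44e-183). These SEs are small beside the spread of the AHNAK libraries. Over the alternatives its adjusted p rose to 0.000232 after siRNA.1 and 0.000105 after siRNA.2. ANXA2 was at 184 FPKM in the controls and at 183 and 169 with the siRNAs, and the fall after siRNA.2 passed (-0.14, SE 0.0306, edgeR adjusted p = 3.79e-05). The ratio of ANXA2 to S100A10 FPKM was 0.318 ± 0.00899 in the controls, 0.342 ± 0.00941 after siRNA.1 and 0.277 ± 0.00586 after siRNA.2, and these ranges did not overlap.

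ANXA1, the main partner of S100A11, was at 183 FPKM in the controls and at 203 after siRNA.1 (log2 fold change 0.12, SE 0.0355, edgeR adjusted p = 0.00409, but 0.0581 without siRNA.1 replicate 1). The ratio of S100A11 to ANXA1 FPKM was 5.30 ± 0.0970 in the controls, 5.91 ± 0.163 after siRNA.1 and 5.97 ± 0.0269 after siRNA.2. MYH9, the myosin heavy chain bound by S100A4, fell with both siRNAs, from 209 FPKM to 188 (-0.18, SE 0.0316, edgeR adjusted p = 1.13e-07) and 184 (-0.20, SE 0.0315, adjusted p = 3.34e-09). Of the targets of S100P, EZR fell after siRNA.2 (-0.18, SE 0.0391, edgeR adjusted p = 3.74e-05) and IQGAP1 with both (-0.17 and -0.32, SE 0.0387 each, edgeR adjusted p = 0.000127 and 4.17e-15), while S100P itself rose. ANXA11, a partner of S100A6, fell with both (-0.26 and -0.42, SE 0.0487 and 0.0486, edgeR adjusted p = 1.59e-06 and 1.26e-16). ANXA5, another annexin, fell with both (-0.13 and -0.20, SE 0.0460 and 0.0458, edgeR adjusted p = 0.0175 and 7.52e-05, the first lost in limma and without control replicate 2, control replicate 3 or siRNA.1 replicate 2, at up to 0.170). S100PBP, which binds S100P, went from 2.79 to 2.23 FPKM after siRNA.2 (-0.33, SE 0.0983, edgeR adjusted p = 0.00323).

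**Figure D4:**
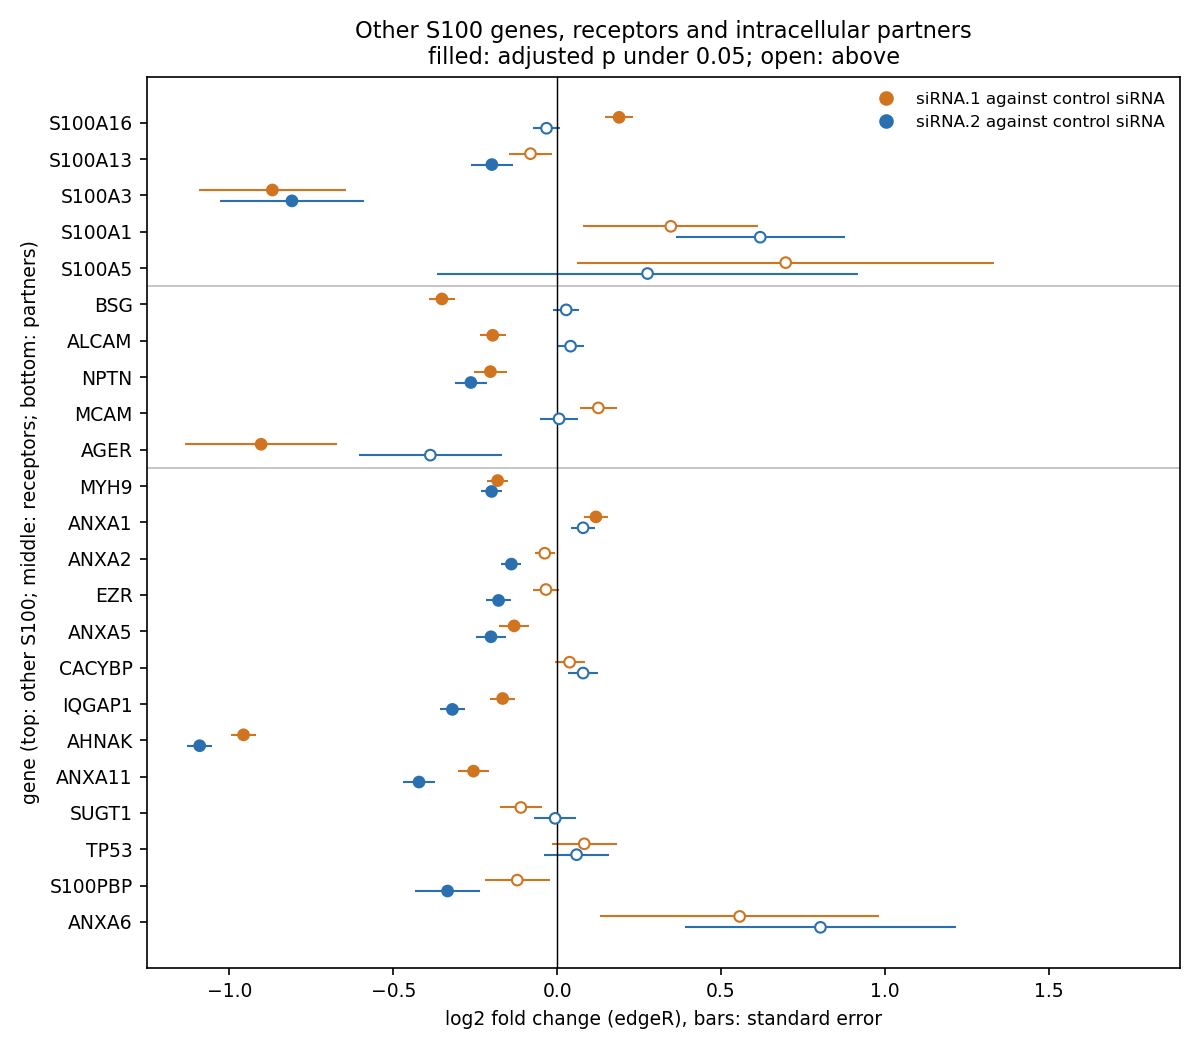
Fitted log2 fold change (x axis) of the tested genes of 3 lists (y axis: other S100 genes, receptors of secreted S100 proteins and intracellular partners, each in order of mean level) after siRNA.1 (orange) and siRNA.2 (blue) against control siRNA; bars are the standard error and filled points have an adjusted p under 0.05. AHNAK is the lowest point of the partners, and BSG and ALCAM are lower after siRNA.1 and near 0 after siRNA.2.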

How the data were processed

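Poly(A)+ RNA from TE13 cells was sequenced in 9 libraries, 3 per condition, grouped by their labels. According to the study's methods and the submitters' processing notes, the authors aligned reads with STAR to GRCh38 and counted them per gene with featureCounts; versions, annotation release and strand setting are not given in the sources used here. The authors deposited raw counts per gene, not normalized, together with FPKM. Every FPKM value lay within 0.006 of count over exonic length and library total. All per-library columns were used. Total counts per library were 15337917 to 22559998, and intervals and limits cover counting error only.

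Counts were tested with edgeR 4.0.16 (R 4.3.3; TMM; quasi-likelihood F test) with the 3 conditions fitted together and no covariates. The 21395 genes tested averaged 0.1 FPKM or more over the libraries, p-values were adjusted over all of them (Benjamini-Hochberg), and calls needed an adjusted p under 0.05. Standard errors were |log2 fold change| divided by the root of F. Alternatives were DESeq2 1.42.0, its size factors in edgeR, other filters, limma 3.58.1 on log2(FPKM + 0.1) and log2(FPKM + 1), a replicate block, fits of 2 groups, each library left out in turn, and a 2-fold minimum. The fits were also run on simulated counts in which every gene had the same spread. Such counts cannot check the SEs or p-values of single genes here. Gene spans equal those of GENCODE v44; promoters came from RefSeq. Python 3.11.15 with pandas 2.3.3 and matplotlib 3.10.9 drew the summaries.

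The members, gene lists, motifs and alternatives were chosen with earlier results of these data known. Named were all members, and genes of the lists called against control with a mean of at least 1 FPKM. Some genes under 1 FPKM or not called are also named, where a count or an overlap involved them. The labels call the libraries biological replicates of 1 cell line, so p-values refer to the spread between such cultures. The edgeR fit estimates that spread partly from other genes, so for a single gene it can be too small. No protein sequences were used here.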

Additional observations from a re-analysis of the deposited data

Results flagged for a closer look

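For 4 members the effects of the siRNAs differed, by the direct edgeR test of siRNA.2 against siRNA.1 over all genes. S100A2 was higher after siRNA.2 by 0.43 on the log2 scale (adjusted p = 3.96e-15), with all 3 siRNA.2 libraries above all 3 siRNA.1 libraries. S100A10 was higher after siRNA.2 by 0.20 (edgeR adjusted p = 6.69e-06, up to 0.0355 over the alternatives), again in 3 of 3 libraries. S100A9 was lower after siRNA.2, at -0.56 (edgeR adjusted p = 0.000142, up to 0.00464 over the alternatives), in 3 of 3 libraries. S100A6 was lower after siRNA.2, at -0.14 (edgeR adjusted p = 0.00413), but this was lost in limma and when siRNA.1 replicate 1 or siRNA.2 replicate 1 was left out (up to 0.241).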

How the results depend on the processing

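Of 507 alternative values for single members, 489 kept their direction where called and their side of the threshold, 18 lost the call and no call reversed. The 507 include comparisons not called in the main fit, which had no call to lose, among them S100A7, whose fold changed sign. All 18 losses fell on S100A6, S100A10 and S100A14. Of 207 alternative counts, 200 stayed within 1.5 times. Where a log2 change of 1 or more was also required, the members called numbered 3 after siRNA.1 (8 without it), 3 after siRNA.2 (7 without it) and 0 between the siRNAs (4 without it). Receptors and partners called between the siRNAs numbered 7 in edgeR and 4 with limma at either pseudocount, 0.1 or 1. The single gene of the chromosome 1 stretch called between the siRNAs (1 in edgeR) was lost without siRNA.1 replicate 1 or siRNA.2 replicate 2, a range of 0 to 1. With 1 library left out, S100A6 after siRNA.1 and S100A10 after siRNA.1 each lost the call once, S100A14 after siRNA.2 lost it 6 times (without control replicate 2 or 3, siRNA.1 replicate 3 or any siRNA.2 replicate; edgeR adjusted p up to 0.193), and S100A8, S100A9, S100A4, S100A11, S100P and S100A2 kept theirs. Replicate numbers did not pair the libraries: deviations of same-numbered libraries correlated at -0.19 to 0.11. With the replicate block the call of S100A14 after siRNA.2 was lost (log2 fold change -0.10, edgeR adjusted p = 0.0722), and no other call of a member was. The causes were not tested. S100A7 had at most 6 counts in any library, which leaves its change unmeasured.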

Other observations

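For each member with a mean of at least 1 FPKM, the genes most like it over the 9 libraries were found by Pearson's r of log2(FPKM + 0.1) among 11868 genes. The libraries fall into 3 conditions, so these values are a description of shared steps between conditions and carry no p. S100A8 was most like S100A9 among the members (r = 0.90), and outside the list like TNFRSF9 and ARL6IP5 (r = 0.99 each). S100A9 was most like LASP1, which encodes an actin-binding protein, and SEPTIN9 (r = 0.998 and 0.996). S100P was most like S100A11 among the members (r = 0.96), though their levels differ widely, and outside the list like RTN4RL1 and the chemokine CCL3 (both r = 0.99). S100A11 was most like PLAUR, the urokinase receptor, and PCGF6 (r = 0.99 each). S100A2, called higher after siRNA.2, was most like RRN3 (r = 0.99) and SNRPF (r = 0.97), and S100A14 was most like RHOA and PIGV (both r = 0.97).

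Beside the S100 members, markers of other cell types were low. Of 6 fibroblast markers, 1 reached 1 FPKM in each condition, with a summed level of 2.23 to 2.49 FPKM in the controls, 1.46 to 1.64 after siRNA.1 and 1.5 to 1.72 after siRNA.2. Of 4 melanocyte and glial markers none reached it, at summed levels of 0.630 to 0.940, 0.620 to 0.890 and 0.530 to 0.720 FPKM. Of the genes that fuse an S100 domain to a long repeat region, 1 of 7 passed the filter, TCHH (named although under 1 FPKM, after its values were seen), which was at 0.123 FPKM in the controls and 0.257 after siRNA.1 (edgeR adjusted p = 0.0475, up to 0.245 over the alternatives). The share of counts on mitochondrial genes was 7.46% to 7.66% with control siRNA, 4.99% to 5.06% after siRNA.1 and 5.54% to 5.56% after siRNA.2, so it moved with condition; its part in the member changes was not tested.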
